A study of Mus musculus with 15 samples.

Results

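The comparison described here is between lesional and non-lesional skin of mice that lack OTULIN in their keratinocytes. Its members are 10 of the 15 skin libraries of the series, chosen by their labels alone, 5 labelled OTULIN-KO lesional and 5 labelled OTULIN-KO non-lesional. All samples were skin of C57BL/6 mice aged 3 weeks, and the genotype was Otulin fl/fl K14-Cre, in which the keratin 14 promoter drives Cre recombinase in keratinocytes. Both groups therefore carry the same deletion and differ in the appearance of the skin, affected or not affected. The remaining 5 libraries, labelled WT, came from littermates with loxP-flanked alleles and no Cre, and serve here as a reference range. The samples were whole skin tissue, so each holds dermal, immune, fat, nerve and muscle cells in which Cre is not expected, beside the keratinocytes. The study's text describes back skin lesions as small, confined foci, and the share of a sample that was lesion is not stated.

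OTULIN is a deubiquitinase that cleaves linear (Met1-linked) ubiquitin chains, the chains that the LUBAC complex attaches to components of the TNF receptor 1 signalling complex. In keratinocytes this signalling controls NF-κB target genes and the choice between survival, apoptosis and necroptosis. Epidermis that is injured or inflamed switches on the stress keratins 6, 16 and 17, small proline-rich proteins, calgranulins and cytokines of the IL-1 family, and these programs are the usual markers of a skin lesion.

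The assay was QuantSeq, in which each polyadenylated transcript gives a tag near its 3′ end, and counts are therefore not divided by transcript length. A library held 1962604 to 2510703 counts in the lesional group and 2237906 to 2409357 in the non-lesional group, a difference that an exact permutation test did not separate (two-sided p = 0.159). Levels are given as CPM after TMM normalization, that is, counts scaled to a common library size, and 1 count was worth 0.405 to 0.52 CPM. Keratinocyte, fibroblast, fat and muscle markers were present in all 10 libraries. *Otulin* itself had 27.5, 19.2, 25.9, 24.3 and 26.9 CPM in lesional libraries 2, 5, 8, 11 and 14, and 31.1, 21.5, 28.7, 22.3 and 27.4 CPM in non-lesional libraries 3, 6, 9, 12 and 15. The groups overlapped (log2 fold change -0.08, SE 0.17), and since both carry the deletion and whole skin keeps other cells, this level does not check the labels. *Xist* was high and Y-linked counts were near 0 in lesional 11, non-lesional 12 and 1 WT library, the pattern of female mice, whereas the other libraries had the male pattern. Lesional 11 was also the library with the most genes outside the non-lesional range, and sex and lesion cannot be told apart within it. Below, values of a gene are listed in this fixed order of libraries, a log2 fold change is lesional minus non-lesional with its standard error (SE), and a p given with a gene is the unadjusted, two-sided p of the exact permutation test of its mean log2 CPM over all regroupings of these libraries into 5 and 5.

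Across the 12864 genes that passed the filter on low counts, edgeR's quasi-likelihood test called 0 genes at a Benjamini-Hochberg adjusted p under 0.05 (percent called 0), and the smallest adjusted p of that edgeR test was 0.973. DESeq2's Wald test and limma's voomWithQualityWeights also called 0 genes, with 815 and 406 genes at an unadjusted p under 0.05. The fold change was positive for 6511 of the genes tested and negative for 6350. With edgeR's unadjusted p under 0.05 there were 372 genes with higher counts in lesional libraries (2.89% of those tested) and 171 with lower counts (1.33%). That split depended on the processing. Higher were 275 of 510 such genes with upper quartile normalization, 231 of 512 with total counts only, and 201 of 406 with limma. When a log2 fold change of 1 or more in size was also required, 73 genes were higher (0.567%) and 5 lower (0.0389%). Among the 8 libraries with Y-linked counts, a set chosen after seeing the data, the same criteria gave 11 higher and 15 lower genes. No gene below is therefore called as changed, and the adjusted p of edgeR was at least 0.973 for each that passed the filter; the others had none. The study's figure legend gives n = 5 mice for its skin profiles, but the labels do not tie a library to an animal, so p measures the spread between these samples.

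The lesional libraries differed among themselves far more than the non-lesional ones. The SD of log2 CPM over the 5 libraries had a median of 0.39 in the lesional group, 0.26 in the non-lesional group and 0.29 in WT, and it was larger in the lesional than in the non-lesional group for 75.5% of the genes tested. In the lesional group 700 genes had an SD over 1, against 59 in the non-lesional group and 92 in WT. Genes at least 2-fold above the highest non-lesional library, with at least 10 counts, numbered 745 in lesional 11 and 266 in lesional 2, but 9, 7 and 26 in lesional 5, 8 and 14. In the 5 WT libraries measured against the same ceiling there were 7 to 161 such genes. Genes at least 2-fold below the lowest non-lesional library numbered 617 in lesional 11, 410 in lesional 14 and 8 to 45 in lesional 2, 5 and 8.

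**Figure D1:**
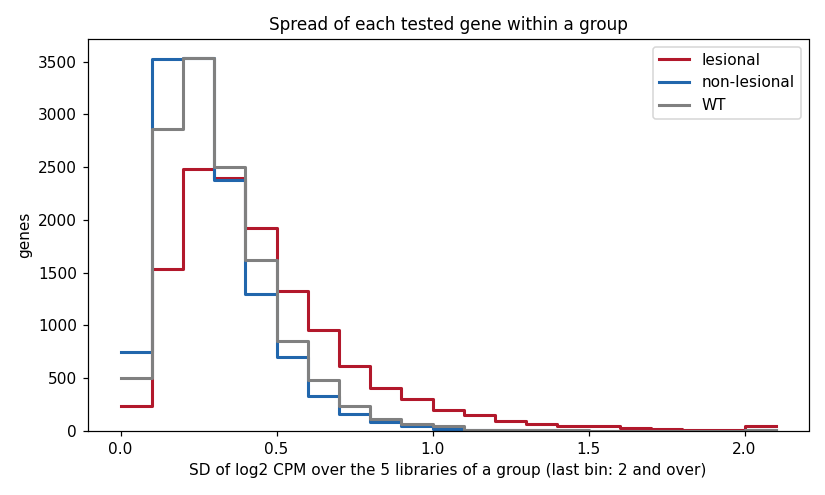
Histogram of the SD of log2 CPM (x axis, bins of 0.1, the last holding 2 and over) of the 12864 genes tested (y axis, number of genes), with one line per group. The line of the lesional libraries is shifted to the right, with a median of 0.39 against 0.26 in non-lesional libraries and 0.29 in WT.

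Among the non-lesional libraries, number 3 lay towards lesional 2 and 11 for epidermal stress genes, and the value without it is given for some of these. WT library 1 had similar levels of stress keratins, which summed to 2224 CPM against 1667 CPM in non-lesional 3. Its small proline-rich and envelope genes summed to 673.7 CPM against 643.9 CPM. For calgranulins and related genes WT libraries had at most 243.4 CPM, and non-lesional 3 had 549.9 CPM. Because many genes were high in only some lesional libraries, gene lists are described by how many members, with at least 10 counts, lay above every non-lesional library in each lesional library. Medians over the members of a list that passed the filter are given as descriptions, with their lowest and highest value over the 10 fits that each leave out 1 library. Over all 14612 genes with at least 10 counts in some lesional library, that share was 23.4% in lesional 2, 16.7% in lesional 5, 14.5% in lesional 8, 31% in lesional 11 and 24.8% in lesional 14. In whole skin, fewer cells of a type and less RNA per cell cannot be told apart.

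**Figure D2:**
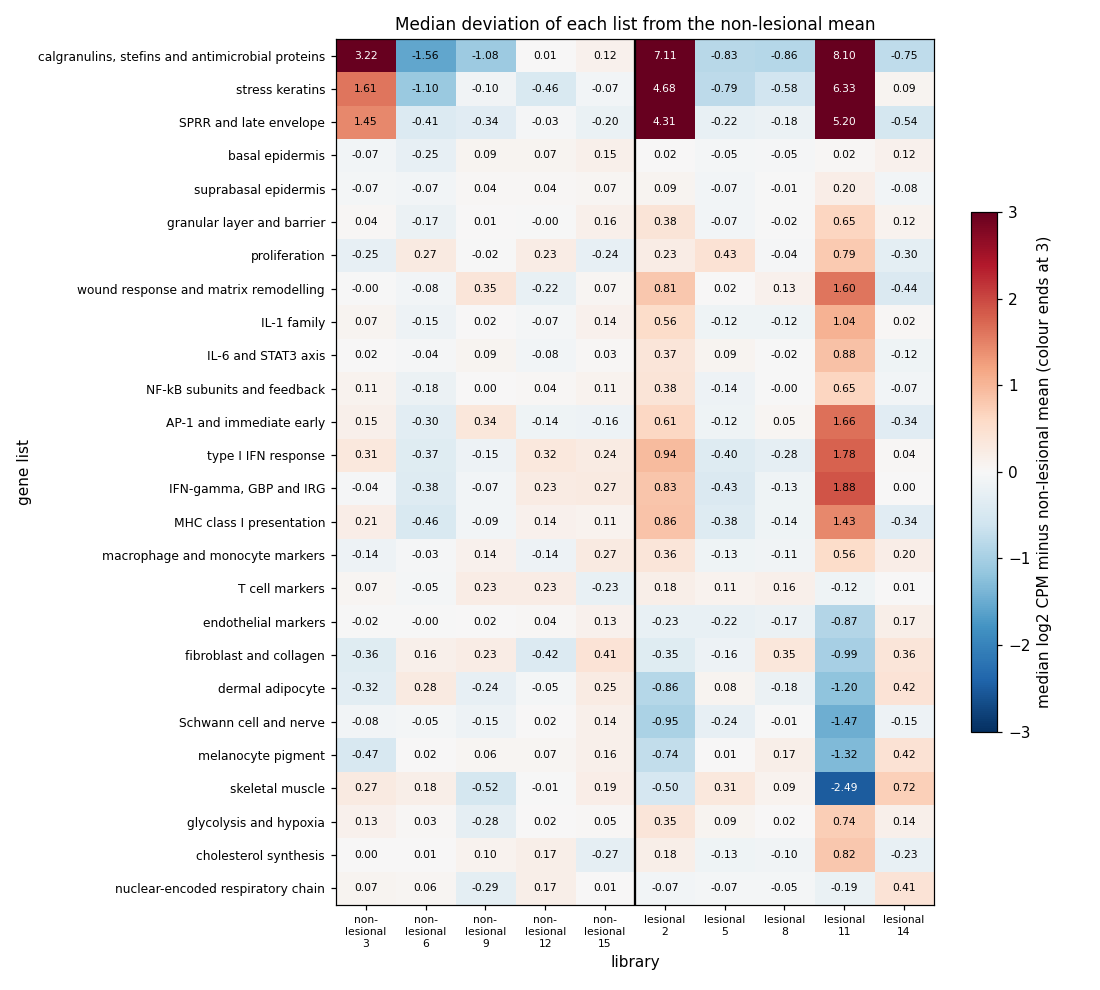
Heat map of 26 gene lists (rows) in the 5 non-lesional and 5 lesional libraries (columns). Each cell gives the median, over the members that passed the filter, of log2 CPM minus the mean of the non-lesional libraries. The 3 top lists reach 4.31 to 8.1 in lesional 2 and 11, and stay between -0.86 and 0.09 in lesional 5, 8 and 14.

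The stress keratins were among the genes with the largest differences in the epidermis. *Krt6a*, at chr15:101689910-101694307 on the minus strand of GRCm38 and next to *Krt6b* at chr15:101676023-101680287, encodes the keratin that marks injured epidermis. It had 5022, 329, 231, 15550 and 394 CPM in the lesional libraries and 646, 347, 295, 309 and 346 CPM in the non-lesional ones. Lesional 11 and 2 were above every non-lesional library, while lesional 5 and 14 lay inside the non-lesional range and lesional 8 below it, so the groups overlapped (log2 fold change 3.47, SE 1.23, exact permutation p = 0.349, and 1.94 without lesional 11). Its WT range was 264 to 1207 CPM. *Krt16* had 909, 7.28, 12.5, 2898 and 22.5 CPM in lesional and 99, 4.3, 19.6, 10.9 and 17.2 CPM in non-lesional skin, with the same 2 libraries on top and non-lesional 3 next (log2 fold change 4.68, SE 1.87, exact permutation p = 0.278, 5.91 without non-lesional 3 and 2.99 without lesional 11). For *Krt6b* the lesional values were 3566, 2.6, 1.21, 8811 and 4.9 CPM and the non-lesional values 223, 0.859, 2.08, 2.02 and 10.1 CPM. The log2 fold change of *Krt6b* was 5.71, SE 2.75, it was 9.38 without non-lesional 3, and 4.24 without lesional 11. *Krt17*, which is also made in hair follicles, had 3512, 398, 549.8, 4892 and 554 CPM in lesional and 699, 406, 571, 558 and 421 CPM in non-lesional libraries (log2 fold change 1.90, SE 0.72). *Krt6a* and *Krt6b* are close copies, and since the authors kept uniquely mapping reads only, reads that fit both were not counted and the separate levels are uncertain.

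**Figure D3:**
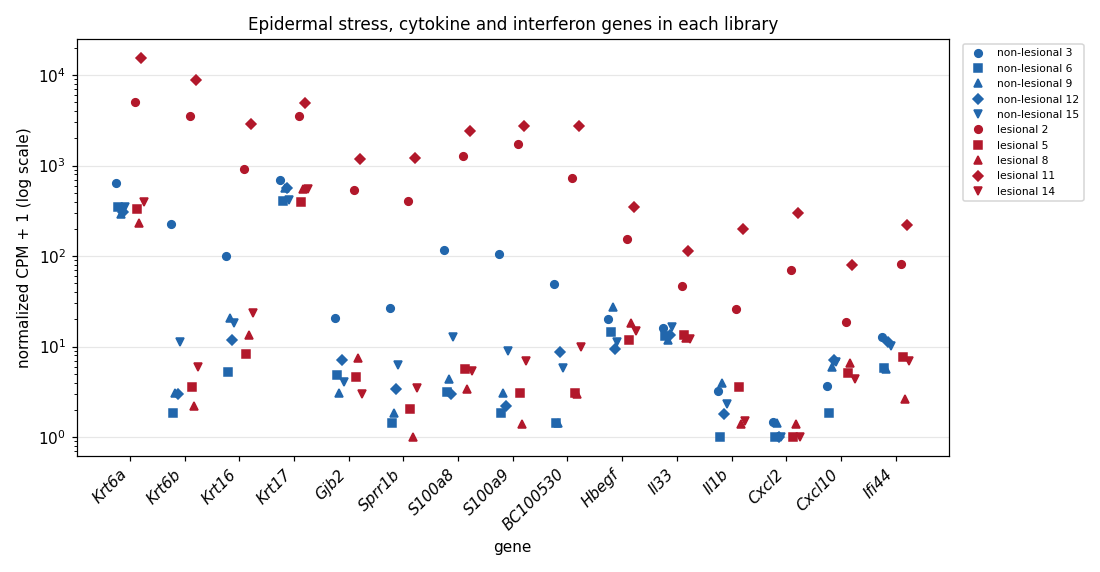
Normalized CPM plus 1 (y axis, log scale) of 15 genes (x axis) in each non-lesional (blue) and lesional (red) library, with a symbol per library. Lesional 11 and 2 are the highest libraries for every gene shown, with *Krt6a* at 15550 and 5022 CPM, and lesional 5, 8 and 14 fall among the non-lesional libraries or next to them.

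Small proline-rich proteins, late cornified envelope proteins and the connexins 26 and 30 form and link the thickened, stressed epidermis. Of the 26 genes of this list only 7 passed the filter, since most members had counts in few libraries. Of all 26, 20 were above every non-lesional library in lesional 2 and 20 in lesional 11, against 0 in lesional 5, 0 in lesional 8 and 1 in lesional 14. *Gjb2*, encoding connexin 26, had 534, 3.64, 6.47, 1185 and 1.96 CPM in the lesional libraries and 19.8, 3.87, 2.08, 6.07 and 3.09 CPM in the non-lesional libraries. Lesional 5 and 8 lay within the non-lesional range and lesional 14 just below it (log2 fold change 5.63, SE 1.93, exact permutation p = 0.294). *Gjb6*, encoding connexin 30, had 151, 5.72, 6.47, 279.8 and 4.41 CPM against 13.5, 6.01, 7.91, 4.86 and 4.41 CPM (log2 fold change 3.60, SE 1.29). *Sprr1b* did not pass the filter and had 404, 1.04, 0, 1225 and 2.45 CPM in lesional and 25.6, 0.43, 0.833, 2.43 and 5.29 CPM in non-lesional skin, a difference with an exact permutation p of 0.373. The close copies *Sprr2d*, *Sprr2e*, *Sprr2f* and *Sprr2h* had the same pair of libraries on top, at 280, 163, 170.4 and 267 CPM in lesional 2 and 403, 262, 289 and 473 CPM in lesional 11. In the other lesional libraries each of these 4 genes stayed at or below 4.68 CPM. *Klk13*, a serine protease of the epidermis named for its level among genes that did not pass the filter, had 242, 6.75, 2.02, 563 and 0.98 CPM in lesional and 16.2, 3.44, 0.416, 2.43 and 3.09 CPM in non-lesional libraries.

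The promoters of several of these genes were searched for the letters of an AP-1 site (TGANTCA, either strand) in the 250 bases before the start site of RefSeq's GRCm38.p6 models. It was found in 11 of the 25 promoters of the list that had a sequence (44%) and in 6.75% of all 32851 promoters. Most of the 11 belong to small proline-rich protein genes, related copies on chr3, so they are not independent promoters. The windows below are shown for 3 of the members described above, with the site in capitals; a match of letters says nothing of binding.
Sprr2h, chr3:92385476-92385504, plus strand: gggatggtctcTGAGTCActgcactttac
Sprr2d, chr3:92338936-92338964, plus strand: tgagtgctcacTGAGTCAcaggtctcaac
Sprr1b, chr3:92438873-92438901, minus strand: agcacctaggaTGAATCAtgtctgacagg
These sites end 187 to 192 bases before the start of *Sprr2d* and *Sprr2h*, and 105 bases before that of *Sprr1b*. *Sprr2d* and *Sprr2e* hold the same window, and as close copies their separate levels are uncertain.

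Calgranulins, stefins and antimicrobial proteins are released by stressed keratinocytes and by neutrophils. Only 5 of the 24 listed genes passed the filter. Above every non-lesional library were 10 of the 24 in lesional 2 and 13 in lesional 11, and 0 in each of lesional 5, 8 and 14. *S100a8* had 1293, 4.68, 2.43, 2429 and 4.41 CPM in the lesional libraries and 117, 2.15, 3.33, 2.02 and 11.9 CPM in the non-lesional ones. *S100a9*, whose protein pairs with that of *S100a8* as calprotectin, had 1722, 2.08, 0.405, 2731 and 5.88 CPM and 104, 0.859, 2.08, 1.21 and 7.94 CPM. For both genes non-lesional 3 was the third highest of the 10 libraries, and lesional 5, 8 and 14 were at most 4.68 and 5.88 CPM (log2 fold changes 4.78, SE 2.22 and 5.28, SE 2.41). Without lesional 11 the log2 fold change was 3.60 for *S100a8* and 4.25 for *S100a9*, and without non-lesional 3 it was 7.30 and 8.23. The stefin genes *BC100530* and *Stfa3*, which encode cysteine protease inhibitors, had 2736 and 2329 CPM in lesional 11 and 727 and 630.5 CPM in lesional 2. Their highest other lesional values were 8.82 and 6.88 CPM, and non-lesional 3 had 48.1 and 61.2 CPM. *Lcn2*, encoding the iron-binding lipocalin 2, had 29.3, 1.04, 0.809, 38.5 and 0 CPM in lesional skin and at most 3.44 CPM in non-lesional skin.

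Lists of keratinocyte layers had smaller median differences than the stress genes. The basal epidermis list had a median log2 fold change of 0.01 and the suprabasal list of -8e-04, next to 0.003 over all genes tested. They ran from -0.06 without non-lesional 6 to 0.07 without lesional 5 and from -0.02 without lesional 2 to 0.07 without lesional 14. *Krt14*, the basal keratin whose promoter drives Cre here, had 3165, 688, 934, 5986 and 1078 CPM in lesional and 1403, 662, 888, 1228 and 824 CPM in non-lesional libraries. Lesional 2 and 11 were above the non-lesional range and the others inside it (log2 fold change 1.24, SE 0.57). *Krt15*, another basal and hair bulge keratin, went the other way in those libraries, with 1178, 3121, 2098, 643 and 3306 CPM in lesional and 2038, 3288, 2900, 2741 and 3112 CPM in non-lesional skin (log2 fold change -0.44, SE 0.37). *Krt10*, the keratin of the first suprabasal layers, had 2987, 3297, 3723, 1382 and 1057 CPM in lesional and 3351, 3363, 4202, 4536 and 4171 CPM in non-lesional libraries. Lesional 2, 5, 11 and 14 were below every non-lesional library and lesional 8 was not, with the lowest values in lesional 14 and 11 (log2 fold change -0.66, SE 0.31, exact permutation p = 0.0317). Its partner *Krt1* had 304, 219, 259.7, 621 and 182 CPM against 255, 201, 156, 196 and 171 CPM, highest in lesional 11 (log2 fold change 0.70, SE 0.30). *Krt10* has an antisense gene model over its exons. The counting parameters that the study lists hold no strand setting, so reads of the antisense model may be included.

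*Dsc1*, encoding the suprabasal desmosomal cadherin desmocollin 1, was the 1 suprabasal gene whose groups did not overlap, with 135, 106, 102, 281 and 109 CPM in lesional and 100.3, 80.8, 93.7, 83.4 and 100.1 CPM in non-lesional libraries. Lesional 11 stood far above the other 4, which lay between 102 and 135 CPM (log2 fold change 0.68, SE 0.26, and 0.30 without lesional 11). In all, 38 genes were higher without overlap (0.295% of those tested) and 42 lower (0.326%), a split that became 22 and 57 with upper quartile normalization and 21 and 63 with total counts alone. In the granular layer and barrier list, 25 of 26 genes passed the filter, with a median log2 fold change of 0.16 (from 0.05 without lesional 11 to 0.26 without non-lesional 3), and 4 had an unadjusted edgeR p under 0.05 in the higher direction and 0 in the lower, against 2.89% and 1.33% of all genes tested. *Casp14*, the protease that processes filaggrin, had 233, 97.2, 80.5, 596 and 109.7 CPM in lesional and 71.5, 75.2, 81.6, 93.1 and 94.4 CPM in non-lesional skin. Lesional 2, 5, 11 and 14 exceeded every non-lesional library and lesional 8 did not (log2 fold change 1.42, SE 0.53, exact permutation p = 0.0397, and 0.65 without lesional 11). *Klk7*, a serine protease of corneocyte shedding, had 2643, 603, 719.7, 4012 and 848 CPM against 977, 577, 749, 711 and 816 CPM, with lesional 2 and 11 above the non-lesional range (log2 fold change 1.20, SE 0.51). The transglutaminase *Tgm3* had 22, 20.3, 18.6, 48.6 and 26.9 CPM in lesional and 7.2, 15, 13.3, 9.71 and 20.3 CPM in non-lesional libraries, with 3 of 5 lesional values above them all (log2 fold change 1.05, SE 0.31, exact permutation p = 0.0238).

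Of 30 proliferation genes 28 passed the filter, and 23 had a positive and 5 a negative fold change, where all genes tested had 6511 and 6350. An unadjusted edgeR p under 0.05 was reached by 2 of the 28, both higher, and by 2.89% of all genes tested in that direction. The median was 0.28 on the log2 scale (from 0.03 without lesional 11 to 0.41 without lesional 14). The summed level of the list was 2846, 4242, 3535, 1940 and 5243 CPM in the lesional libraries and 3618, 4124, 2924, 3439 and 3680 CPM in the non-lesional ones, so that lesional 11 and 2 had lower sums than every non-lesional library and lesional 5 and 14 higher ones. The list median per library (log2 CPM minus the non-lesional mean) gave another order. It was 0.23, 0.43, -0.04, 0.79 and -0.30 in the lesional libraries, so lesional 11 was the highest and lesional 14 the lowest library. *Ccna2*, encoding the S-phase cyclin A2, had 45.8, 53, 38, 46.5 and 38.7 CPM in lesional and 23.9, 37.8, 35.8, 34.8 and 32.6 CPM in non-lesional libraries. Every lesional library was above every non-lesional one, but the lowest lesional value was only just above the highest non-lesional one, and *Ccna2* was the only gene of the list without overlap (log2 fold change 0.43, SE 0.16). *Exosc9* lies opposite its exons. *Mcm3*, of the replicative helicase, had a log2 fold change of 0.44, SE 0.20 and *Mki67*, encoding the marker Ki-67, one of 0.33, SE 0.24. *Mki67* had 60, 72.2, 51.8, 62.7 and 36.7 CPM in lesional and 36.9, 67, 42.5, 53 and 26.5 CPM in non-lesional skin, and the groups overlapped. Above every non-lesional library were 21 of the 30 genes in lesional 11, 11 in lesional 5, 7 in lesional 2 and 3 each in lesional 8 and 14.

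Of 26 genes of wound response and matrix remodelling, 19 were above every non-lesional library in lesional 11 and 14 in lesional 2, against 1 in each of the other lesional libraries. *Hbegf*, an epidermal growth factor receptor ligand, had 154, 10.9, 17.4, 352 and 13.7 CPM in lesional and 19.4, 13.3, 26.2, 8.5 and 10.1 CPM in non-lesional libraries (log2 fold change 2.81, SE 1.06, and 1.66 without lesional 11). *Tnc*, encoding the matrix protein tenascin C, had 77.4, 16.6, 27.1, 71.8 and 22.1 CPM against 18.9, 9.45, 29.1, 22.7 and 15.9 CPM (log2 fold change 1.16, SE 0.46). Lesional 2 and 11 had about the same level of *Tnc*, and the fold change was 0.90 without lesional 11 and 0.84 without lesional 2. The collagenase *Mmp13* had 13.8, 0, 0.405, 139 and 0 CPM in lesional skin and at most 0.405 CPM in any non-lesional library.

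Cytokines of the IL-1 family are the early signals of injured keratinocytes. All 22 listed genes had at least 10 counts in some lesional library, 19 were above every non-lesional library in lesional 11, 16 in lesional 2, 2 in lesional 14 and 0 in lesional 5 and 8. Of the 19 that passed the filter, 5 had an unadjusted edgeR p under 0.05 in the higher direction, against 2.89% of all genes tested. *Il33*, an alarmin stored in nuclei, had 45.4, 12.5, 11.3, 113 and 11.3 CPM in lesional and 14.8, 12, 10.8, 12.6 and 15.4 CPM in non-lesional libraries, and lesional 5, 8 and 14 lay inside the non-lesional range (log2 fold change 1.55, SE 0.65, exact permutation p = 0.381, and 0.62 without lesional 11). *Il1f9*, encoding IL-36γ, had 51.3, 11.4, 11.3, 76.4 and 16.7 CPM against 20.7, 11.6, 12.9, 14.2 and 11.9 CPM (log2 fold change 1.22, SE 0.54). The inflammatory caspase gene *Casp4* had 17.4, 3.12, 5.26, 21.8 and 3.92 CPM against 3.15, 3.01, 7.5, 2.83 and 4.85 CPM (log2 fold change 1.25, SE 0.55). *Il1b* did not pass the filter. It had 24.7, 2.6, 0.405, 198 and 0.49 CPM in lesional and 2.25, 0, 2.92, 0.809 and 1.32 CPM in non-lesional libraries, with an exact permutation p of 0.278.

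A short list held *Tnf*, *Il1b*, *Il6*, *Ccl3*, *Cxcl3*, *Cxcl9* and *Cxcl10*, cytokine genes that were also the subject of qRT-PCR. Of these 7 genes *Cxcl10* and *Cxcl9* passed the filter. *Cxcl10*, an interferon-induced chemokine, had 17.9, 4.16, 5.66, 79.4 and 3.43 CPM in lesional and 2.7, 0.859, 5, 6.07 and 5.73 CPM in non-lesional libraries. Lesional 2 and 11 were above the non-lesional range (log2 fold change 2.41, SE 0.94, exact permutation p = 0.183), and without lesional 11 the value was 0.93. *Cxcl9* gave 17.9, 4.16, 4.45, 62.2 and 6.37 CPM against 10.8, 3.87, 3.75, 6.07 and 6.17 CPM (log2 fold change 1.62, SE 0.76, and 0.43 without lesional 11). *Tnf* had 3.21, 0.52, 1.62, 11.6 and 1.96 CPM in lesional and 1.35, 0.859, 1.67, 0.405 and 0.441 CPM in non-lesional skin, 0.52 CPM being a single count, and its exact permutation p was 0.0794. *Ccl3* reached 17.9 and 60.7 CPM in lesional 2 and 11 and at most 0.809 CPM elsewhere. *Il6* and *Cxcl3* were at most 3.04 and 7.59 CPM in any library, and both were highest in lesional 11. None of the 7 had groups without overlap, and the smallest p that 5 against 5 libraries allow is 0.0079.

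Other chemokines followed the same libraries. *Cxcl2*, a neutrophil attractant, had 69.7, 0, 0.405, 296 and 0 CPM in lesional skin and at most 0.45 CPM in non-lesional skin. *Cxcl16* had 80.2, 30.7, 27.5, 113 and 36.2 CPM against 37.8, 21.9, 28.7, 27.9 and 28.7 CPM (log2 fold change 0.99, SE 0.38), and *Ccl8*, a monocyte attractant, 112, 21.3, 29.9, 222 and 51 CPM against 43.2, 29.6, 34.6, 25.9 and 32.6 CPM (log2 fold change 1.39, SE 0.58). Of all 35 ligand genes, 16 were above every non-lesional library in lesional 11 and 14 in lesional 2, against 0, 1 and 3 in lesional 5, 8 and 14. In the IL-6 and STAT3 list, *Il4ra* had 55.9, 23.4, 24.7, 132 and 24.5 CPM against 21.6, 27.1, 24.1, 19.4 and 17.2 CPM (log2 fold change 1.24, SE 0.48). *Il19*, *Il24* and *Osm* were at 0 in lesional 5, 8 and 14 and had 30.4, 13.7 and 14.7 CPM in lesional 11.

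Type I interferon induces a set of antiviral genes, and most of the list was above the non-lesional range in lesional 2 and 11. Of 54 genes, 39 passed the filter, 37 of those had a positive fold change (6511 of 12864 over all genes tested), 2 had an unadjusted edgeR p under 0.05 in the higher direction (2.89% over all genes tested), and the median log2 fold change was 0.67. That median ran from 0.21 without lesional 11 to 0.85 without lesional 8, and it was 0.10 with limma's voomWithQualityWeights. Above every non-lesional library were 46 of the 54 in lesional 11 and 40 in lesional 2, but 0 in lesional 5, 0 in lesional 8 and 1 in lesional 14. Members with at least 10 counts in every non-lesional library numbered 32. Of these, 6, 7 and 3 were below the non-lesional range in lesional 5, 8 and 14. Over all 11579 genes with such counts that share was 16.9%, 15.3% and 27.2%. The summed level of the list was 2691, 942, 1080, 5257 and 1409 CPM in the lesional libraries and 1477, 933, 1176, 1661 and 1543 CPM in the non-lesional ones, and 814 to 1004 CPM in WT. *Ifi44* had 80.6, 6.75, 1.62, 220.1 and 5.88 CPM in lesional and 11.7, 4.73, 4.58, 10.1 and 9.26 CPM in non-lesional libraries, and its WT range was 0.853 to 3.8 CPM. Lesional 2 and 11 were above all non-lesional libraries, lesional 8 was below them, and lesional 5 and 14 within their range (log2 fold change 2.95, SE 1.22, exact permutation p = 0.413, and 1.56 without lesional 11). *Bst2*, encoding tetherin, had 16, 5.72, 6.07, 59.7 and 4.9 CPM against 10.3, 5.16, 3.75, 5.26 and 9.26 CPM (log2 fold change 1.44, SE 0.72, and 0.29 without lesional 11). *Oas2* and *Mx1*, which did not pass the filter, had 65.8 and 28.8 CPM in lesional 11 and 18.8 and 8.71 CPM in lesional 2, with at most 4.95 and 4.45 CPM in non-lesional libraries.

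Genes of the interferon-γ, GBP and IRG list had a median log2 fold change of 0.66 over the 14 of 25 that passed the filter, and those of MHC class I presentation one of 0.48 over 12 of 16. These medians ran from 0.12 without lesional 11 to 0.75 without non-lesional 12 and from 0.14 without lesional 11 to 0.63 without lesional 5. *Gbp7*, encoding a guanylate-binding protein, had 62.3, 36.9, 37.6, 101 and 42.6 CPM in lesional and 36.5, 34.4, 35, 40.5 and 46.3 CPM in non-lesional libraries (log2 fold change 0.54, SE 0.26). *B2m*, the light chain of MHC class I, had 2639, 1143, 1289, 4307 and 1098 CPM against 1618, 1171, 1201, 1537 and 1519 CPM, with lesional 5 and 14 just below the non-lesional range (log2 fold change 0.57, SE 0.36). *Ctss*, the protease that trims the MHC class II invariant chain, had 188, 68.6, 72, 224 and 81.3 CPM against 71.5, 64.9, 65.4, 66 and 78.1 CPM, above the range in lesional 2, 11 and 14 (log2 fold change 0.87, SE 0.33, exact permutation p = 0.0714). The class II list as a whole had a median of 0.14 (from 0.09 without non-lesional 6 to 0.24 without lesional 5), with 0 of 10 genes above the range in lesional 5 and 2 to 4 in each of the others.

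The interferon-stimulated response element holds 2 GAAA repeats 2 bases apart. Its core (GAAANNGAAA, either strand) was found before the start of 16 of the 42 type I interferon genes with a RefSeq promoter (38.1%) and of 11 of 15 genes of the interferon-γ list (73.3%), against 2.98% of all 32851 promoters. Some of these genes are close copies, such as *Ifit3* and *Ifit3b*, which hold the same window. The windows below are shown because these 4 genes had the differences described, and capitals mark the core or its reverse complement.
Bst2, chr8:71537577-71537606, minus strand: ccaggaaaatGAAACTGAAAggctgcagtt
Trim30a, chr7:104465210-104465239, minus strand: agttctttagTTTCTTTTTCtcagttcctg
Gbp7, chr3:142530273-142530302, plus strand: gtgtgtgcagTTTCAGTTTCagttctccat
Cxcl10, chr5:92349083-92349112, minus strand: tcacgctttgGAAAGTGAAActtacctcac
The cores of *Trim30a*, *Gbp7*, *Bst2* and *Cxcl10* end 27, 44, 115 and 204 bases before the start. *Trim30a*, a member of the TRIM family, had 39.4, 20.8, 25.5, 67.8 and 24 CPM in lesional and 22.5, 18.1, 27.9, 25.1 and 23.8 CPM in non-lesional libraries (log2 fold change 0.59, SE 0.29). *Cxcl10* lies opposite exons of *Art3*, and reads of the pair cannot be told apart without strand.

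In the list of OTULIN, LUBAC and linear ubiquitin genes, 12 of 14 passed the filter, with a median log2 fold change of 0.14 (from 0.09 without lesional 14 to 0.21 without non-lesional 3, and 0.22 without the filter) and single genes between -0.36 and 0.53. *Rnf31*, encoding the catalytic LUBAC subunit HOIP, had 13.3, 13.5, 6.88, 16.7 and 7.84 CPM in lesional and 7.65, 7.73, 6.66, 10.9 and 7.06 CPM in non-lesional libraries (log2 fold change 0.53, SE 0.28), and shares exon sequence with *Irf9* on the same strand. *Tnip2*, a ubiquitin-binding A20 partner, had 19.2, 21.3, 20.6, 32.9 and 26.5 CPM against 16.6, 18.9, 21.2, 16.2 and 16.3 CPM (log2 fold change 0.43, SE 0.19, exact permutation p = 0.0317). Among NF-κB genes the median was 0.17 (from 0.01 without lesional 11 to 0.30 without lesional 14), and 13 of 17 were above the non-lesional range in lesional 11, 7 in lesional 2, 1 in lesional 8 and 0 in lesional 5 and 14. The largest log2 fold change of that list was 1.08 (0.70 without lesional 11), of *Zc3h12a*, which encodes an RNase that degrades cytokine transcripts. *Rel*, encoding the subunit c-Rel, had 39.9, 27, 34, 67.8 and 20.6 CPM against 28.8, 18.5, 28.3, 22.3 and 26.5 CPM (log2 fold change 0.60, SE 0.28). The AP-1 and immediate early list had a median of 0.45, which ran from 0.04 without lesional 11 to 0.65 without lesional 14 and was -0.02 in the 8 libraries with Y-linked counts. Its member *Ier3* had 148, 32.2, 50.2, 288 and 50 CPM against 62.5, 27.1, 62.9, 55.9 and 41.9 CPM (log2 fold change 1.18, SE 0.58, and 0.49 without lesional 11).

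Cell death genes had a median log2 fold change of 0.09 (from 0.04 without non-lesional 6 to 0.10 without non-lesional 15) over the 20 of 24 that passed the filter, and 0 had an unadjusted edgeR p under 0.05, against 2.89% (higher) and 1.33% (lower) of all genes tested. *Casp8* had 15.6, 14.6, 17, 25.8 and 18.1 CPM in lesional and 9.45, 12.9, 15.4, 12.9 and 15.9 CPM in non-lesional libraries, with lesional 8, 11 and 14 above the range (log2 fold change 0.45, SE 0.22, exact permutation p = 0.0397). Outside that list, the caspase gene *Casp6* was without overlap, with 47.6, 29.6, 27.5, 57.2 and 36.2 CPM in lesional and 26.6, 25.4, 25.8, 25.9 and 23.8 CPM in non-lesional libraries. The lowest lesional value, in lesional 8, was 27.5 CPM and the highest non-lesional one 26.6 CPM (log2 fold change 0.63, SE 0.20, and 0.47 without lesional 11). The necroptosis genes *Mlkl* and *Ripk3* did not pass the filter and were at most 14.2 and 5.06 CPM, in lesional 11.

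Immune cell markers gave different patterns. Of 25 macrophage and monocyte genes, 15 were above the non-lesional range in lesional 2, 14 in lesional 11, 8 in lesional 14, 1 in lesional 8 and 0 in lesional 5. Of the 20 with at least 10 counts in every non-lesional library, 4, 3 and 4 were below it in lesional 5, 8 and 14. Over all 11579 genes with such counts that share was 16.9%, 15.3% and 27.2%. The complement genes *C1qa* and *C1qb* had 121, 74.3, 69.2, 144 and 101 and 93, 70.2, 99.5, 121 and 101 CPM in lesional libraries and 74.7, 63.2, 59.5, 70.4 and 96.6 and 65.7, 74.8, 80.8, 80.9 and 83.4 CPM in non-lesional ones (log2 fold changes 0.48, SE 0.21 and 0.33, SE 0.15). *Adgre1*, encoding the F4/80 antigen, had 20.2, 6.75, 12.9, 18.2 and 13.2 CPM against 17.6, 18.9, 13.3, 13.8 and 19.4 CPM, with 1 lesional library above and 3 below the non-lesional range (log2 fold change -0.21, SE 0.26). Of 20 neutrophil genes 3 passed the filter, with a median log2 fold change of -0.17 (from -0.43 without lesional 14 to 0.02 without non-lesional 15). That sign rests on the filter, since without it the median was 1.95 over the 15 members with counts, and 2.08 with DESeq2's Wald test. *Ly6g*, which encodes a defining neutrophil marker, had 0 counts in all 10 libraries. *Acod1*, *Clec4d* and *Retnlg* were at 28.8, 17.2 and 11.6 CPM in lesional 11 and at most 4.12, 2.29 and 1.67 CPM in the other 9 libraries. Of the 11 members with at least 10 counts in some lesional library 9 were above the non-lesional range in lesional 11, and 2 members were below it, and the summed level of the list in lesional 11, 287 CPM, lay within the 246 to 477 CPM of the non-lesional libraries. The T cell list had a median of -0.08 (from -0.16 without lesional 8 to 0.08 without non-lesional 15, 0.10 with limma's voomWithQualityWeights and 0.07 over 17 members without the filter), and lay between -0.12 and 0.18 in the lesional libraries.

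**Figure D4:**
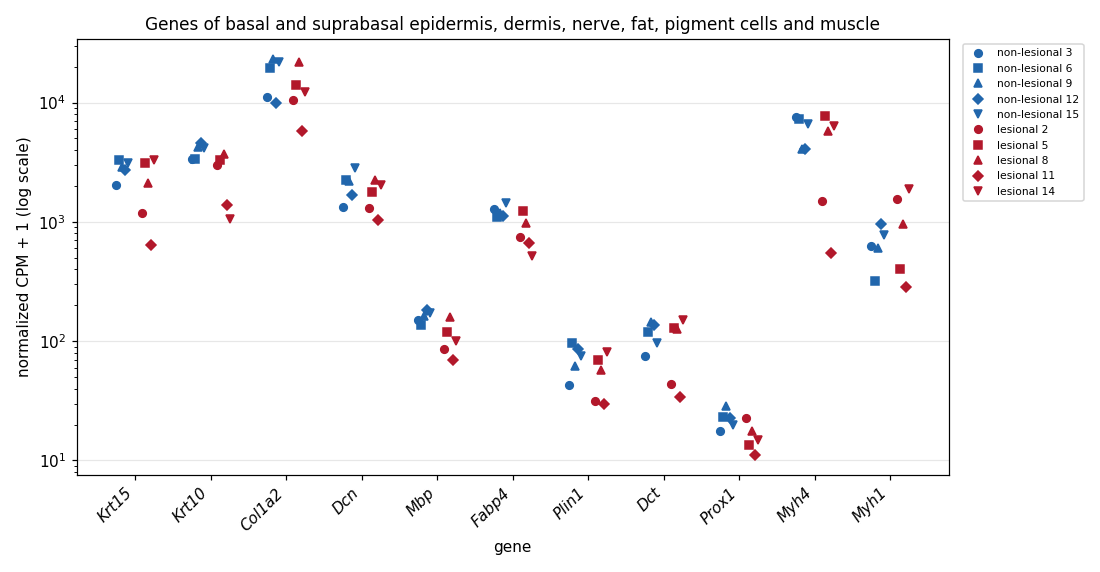
Normalized CPM plus 1 (y axis, log scale) of 11 genes (x axis) of basal and suprabasal epidermis, connective tissue, nerve, fat, pigment cells, lymphatic endothelium and muscle, with non-lesional libraries in blue and lesional ones in red. Lesional 11 is the lowest library for *Krt15*, *Col1a2*, *Mbp*, *Plin1*, *Dct* and *Myh4*, with *Myh4* at 550.4 CPM against 4059 CPM in the lowest non-lesional library.

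Many genes of nerve and fat cells were low in lesional 2 and 11, the libraries with high stress genes. All 8 genes of the Schwann cell and nerve list passed the filter and all 8 had a negative fold change, with a median of -0.50 (from -0.64 without lesional 5 to -0.26 without lesional 11) against 0.003 over all genes. Below every non-lesional library, which held at least 10 counts each, were 8 of them in lesional 11, 7 in lesional 2, 4 in lesional 5, 3 in lesional 14 and 1 in lesional 8. Over all 11579 genes with such counts that share was 33.7% in lesional 11, 23.3% in lesional 2, 16.9% in lesional 5, 27.2% in lesional 14 and 15.3% in lesional 8. *Mbp*, encoding myelin basic protein, had 84.8, 118, 159, 68.8 and 98.5 CPM in lesional and 150.3, 136, 160.3, 181 and 171 CPM in non-lesional libraries, so 4 of 5 lesional values lay below the range (log2 fold change -0.59, SE 0.19, exact permutation p = 0.0238). Without lesional 11 the log2 fold change of *Mbp* was -0.47.

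Dermal adipocyte genes had a median log2 fold change of -0.25 (from -0.49 without lesional 14 to -0.16 without lesional 11), and 15 of 17 were below the non-lesional range in lesional 2 and 14 in lesional 11, against 1 to 3 in the others. In lesional 14, 6 of the 17 were above that range and the list median was 0.42 above the non-lesional mean, although *Fabp4* was lowest there. *Fabp4*, the fatty acid carrier of fat cells, had 748, 1230, 969.7, 661 and 514 CPM against 1286, 1087, 1185, 1111 and 1426 CPM, and only lesional 5 was within the range (log2 fold change -0.56, SE 0.21, exact permutation p = 0.0317). *Prox1*, a factor of lymphatic endothelium, had 21.5, 12.5, 16.6, 10.1 and 13.7 CPM against 16.6, 22.3, 27.5, 21.9 and 19 CPM, with 4 of 5 lesional libraries below the range (log2 fold change -0.52, SE 0.23, exact permutation p = 0.0317). In the sebaceous gland list, *Mgst1* had 92.1, 111, 85, 82.5 and 44.6 CPM against 90, 107, 119.5, 152 and 119 CPM (log2 fold change -0.50, SE 0.21). Muscle genes vary with the amount of muscle in a sample. All 25 were below the non-lesional range in lesional 11, 22 of the 25 were above it in lesional 14, and their summed level was 36400, 58290, 51130, 8343 and 74130 CPM in lesional skin and 33440 to 59760 CPM in non-lesional skin. Of 22 fibroblast and collagen genes, 20 were below the range in lesional 11 and 6 in lesional 2, and 9 were above it in lesional 14 and 6 in lesional 8. The part of tissue composition in the differences of other genes was not tested, and with the muscle and hair scores as covariates 8 genes were higher and 9 lower by the criteria that gave 73 and 5 without them.

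Among genes of energy metabolism, a few were highest in lesional 2 and 11. *Eno1*, a glycolytic enzyme, had 46.3, 18.7, 17.8, 61.2 and 25 CPM in lesional and 22.1, 12.9, 18.3, 18.2 and 17.6 CPM in non-lesional libraries (log2 fold change 0.92, SE 0.33). The lactate exporter gene *Slc16a3* had 99, 32.2, 32.8, 114 and 43.6 CPM against 49.5, 31.4, 20, 31.2 and 32.2 CPM (log2 fold change 0.97, SE 0.39). *Egln3*, a hydroxylase induced by hypoxia, had 213, 32.7, 40.5, 322 and 37.2 CPM against 58, 31.8, 34.1, 40.5 and 34.8 CPM (log2 fold change 1.69, SE 0.69). For these 3 genes lesional 2 and 11 were the highest libraries, and for *Eno1* lesional 14 was also above the range. *Gapdh* and *Pgk1*, which have many near-identical pseudogene copies, were at most 3.01 CPM in these libraries and cannot be read. *Hmox1*, encoding haem oxygenase 1, had 9.62, 10.9, 12.5, 16.7 and 14.2 CPM against 10.3, 6.88, 8.33, 7.28 and 8.38 CPM, with 4 of 5 lesional values above the range (log2 fold change 0.63, SE 0.23, exact permutation p = 0.0159). Of 24 cholesterol synthesis genes, 19 were above the range in lesional 11 and 9 in lesional 2, while 8 were below it in lesional 14, 6 in lesional 5 and 5 in lesional 8. Their median log2 fold change was 0.15 (from -0.06 without lesional 11 to 0.26 without lesional 14).

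Some of the genes without overlap, which made up 0.295% (higher) and 0.326% (lower) of those tested, are given here as a description, since they were named for that pattern. *Ap2s1*, at chr7:16738410-16749294 on the plus strand, encodes a subunit of the clathrin adaptor AP-2 and had 48.6, 41.6, 57.9, 66.8 and 62.7 CPM in lesional and 30.6, 27.5, 28.7, 31.6 and 39.2 CPM in non-lesional libraries (log2 fold change 0.82, SE 0.17). Its WT range of 35.3 to 50.8 CPM overlapped both groups. *Cfap43*, of cilia and flagella, had 1.83, 2.6, 2.43, 2.02 and 0.98 CPM against 5.4, 5.59, 4.58, 8.9 and 4.85 CPM, levels of 2 to 22 counts (log2 fold change -1.54, SE 0.36). *Sema4g*, a semaphorin, had 5.96, 7.79, 5.26, 6.07 and 5.88 CPM against 4.5, 1.72, 3.75, 2.43 and 1.32 CPM (log2 fold change 1.15, SE 0.35), and its WT range was 3.54 to 10.7 CPM. Of the genes without overlap *Mocs3*, *Ms4a6b*, *Kctd18*, *Mpdu1*, *Bola2*, *Mcph1* and *Chmp1a* were also higher, with log2 fold changes of 0.46 to 0.95, and *G6pc3*, *Mdfic*, *Jam3*, *Taf13*, *Ggt6*, *Tspyl1*, *Dolk* and *Chst12* lower, from -0.87 to -0.44. None of the tested genes of the stress keratin, IL-1, chemokine and interferon lists was without overlap. Over the fits that leave out 1 library, the log2 fold change ran from 0.74 to 0.91 for *Ap2s1* and from -1.65 to -1.34 for *Cfap43*.

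Leaving out lesional 11 reduced the fold change of most stress and interferon genes. Among the genes with an unadjusted edgeR p up to 0.05 and at least 4 lesional libraries above the non-lesional ones, the largest log2 fold changes were those of *Smim3*, a small membrane protein, *Casp14*, *Zdhhc13*, *Pmepa1* and *Sema4g*. *Smim3* had 24.3, 12.5, 10.5, 52.1 and 4.41 CPM in lesional and 8.1, 4.3, 8.33, 7.28 and 3.53 CPM in non-lesional libraries (log2 fold change 1.70, SE 0.57). *Pmepa1*, a TGF-β target, had 301, 58.7, 108, 406 and 116 CPM against 91.8, 77.3, 94.1, 84.2 and 84.2 CPM (log2 fold change 1.20, SE 0.46). At the other end, the lowest values after *Cfap43* were those of *Cadm2*, a neural adhesion molecule, with 4.58, 4.16, 6.07, 2.02 and 11.3 CPM against 24.8, 7.73, 15, 10.1 and 7.94 CPM (log2 fold change -1.20, SE 0.43), and of the DNA repair gene *Alkbh2* (-1.04, SE 0.40). *Pmp2*, encoding a lipid-binding protein of peripheral myelin, had 2.29, 1.56, 5.26, 2.53 and 2.45 CPM against 3.6, 6.88, 6.25, 4.86 and 5.73 CPM (log2 fold change -0.91, SE 0.36). Without lesional 11, 10 genes were higher and 11 lower by the criteria of an edgeR p up to 0.05 and a log2 fold change of at least 1 in size, and without lesional 2 they were 27 and 14. Without lesional 5, 8 or 14 there were 163 to 168 higher and 24 to 35 lower.

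**Figure D5:**
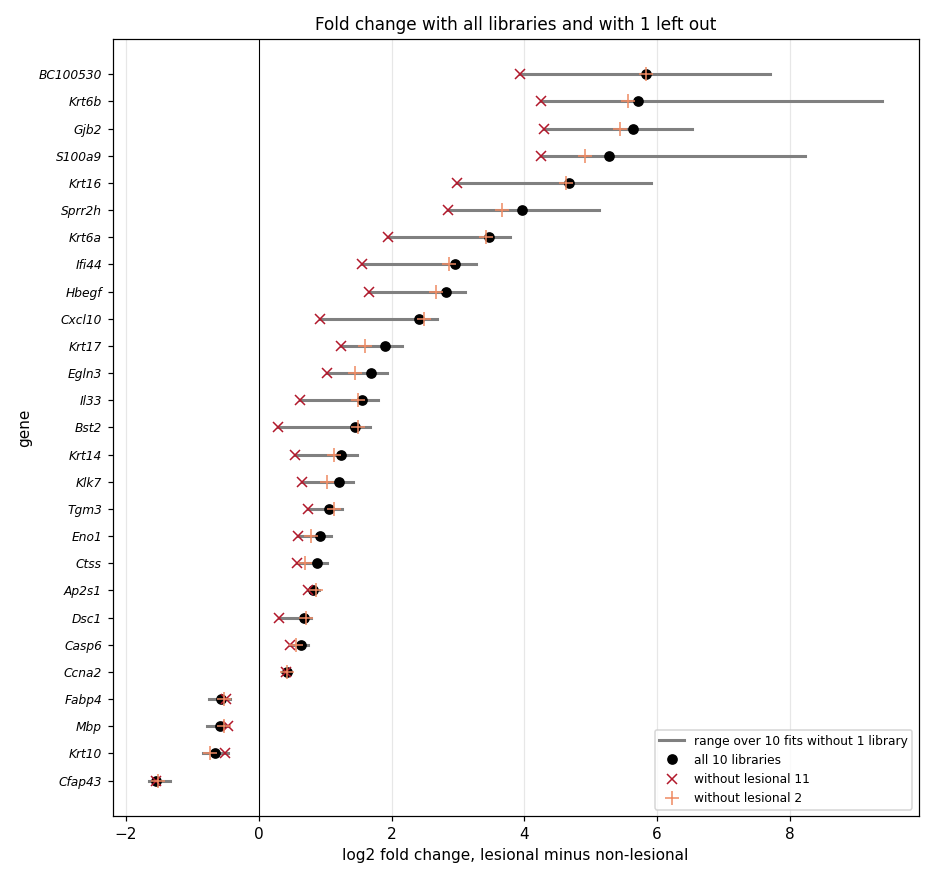
Log2 fold change, lesional minus non-lesional (x axis), of 27 genes (y axis) with all 10 libraries (black points), without lesional 11 (crosses), without lesional 2 (plus signs), and the range over the 10 fits that leave out 1 library each (grey lines). The value of *Krt6b* runs from 4.24 to 9.38, that of *Cfap43* from -1.65 to -1.34, and the cross is the low end of the line for 22 of the 23 genes above 0.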

How the data were processed

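Skin RNA of 15 samples was profiled by QuantSeq 3′ FWD sequencing; the 10 OTULIN-KO libraries were compared here. The authors deposited raw counts per gene, made by trimming with cutadapt 2.10, alignment with Subread to GRCm38 with spike-in sequences, keeping uniquely mapping reads with SAMtools, and counting with featureCounts 2.0.1, with reads assigned to all the genes they overlap. The counting parameters that they list hold no strand setting. A total of 92 spike-in features were dropped, and 55487 genes remained.

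Groups were taken from the labels, without pairing. Genes passing filterByExpr (minimum count 10) were normalized by TMM and tested with edgeR 4.0.16 (R 4.3.3; quasi-likelihood F-test, robust, 2 groups in the fit) with Benjamini-Hochberg adjustment at 0.05. SEs were computed from the fold change and F. A p printed with a single gene is from the exact permutation test of mean log2 CPM (prior count 2) over all regroupings. The fit was tested on simulated data, and the outcome is not reported here. Alternatives were DESeq2 1.42.0, limma 3.58.1, other normalizations and filters, covariates, all 15 libraries, and leaving out each library.

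The libraries compared were taken by their labels; the comparison and the 43 gene lists were chosen with earlier results of these data known. Named genes were the 10 largest and lowest log2 fold changes with p up to 0.05 and at least 4 of 5 lesional libraries beyond all non-lesional ones, the 10 genes of smallest p in each direction whose groups did not overlap, the 4 tested members of smallest p and 3 untested members of highest CPM in each list, all members of the stress keratin, qRT-PCR and stained marker lists, *Otulin*, and the 10 untested genes of highest CPM. Genes with no symbol, pseudogenes and clone names were passed over. Some genes that the rule names are not reported here. *Alkbh2*, *Cadm2*, *Pmp2* and *Zdhhc13* come under the first part. Of 294 named genes, 21 share exons with a gene on the same strand and 69 with one on the opposite strand. Promoters are RefSeq's, GRCm38.p6. Library totals of 1962604 to 2510703 counts set the precision of low genes.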

Additional observations from a re-analysis of the deposited data

Results flagged for a closer look

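In 234 groups of 5 values, of named genes and of list medians, 7 had 1 library whose gap to the next exceeded Dixon's 95% critical value, which chance alone exceeds in about 1 group in 20. Of the non-lesional libraries, number 3 stood apart with 646 CPM of *Krt6a* (next 347), with a median of 1.45 for the SPRR and late envelope list (next -0.03, log2 CPM minus the non-lesional mean), and with the lowest melanocyte pigment median, -0.47 (next 0.02). That *Krt6a* level lay inside the WT range given above. WT library 1 was close to non-lesional 3 in both list medians, at 1.33 and -0.44. Non-lesional 12 had 8.9 CPM of *Cfap43* (next 5.59), and non-lesional 9 had the lowest glycolysis and hypoxia median, -0.28 (next 0.02). Of the lesional libraries, number 11 had 281 CPM of *Dsc1* (next 135), and number 14 had the highest median of nuclear-encoded respiratory chain genes, 0.42 (next -0.05). The cause was not tested for any of these.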

How the results depend on the processing

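The count of 0 genes at an adjusted p under 0.05 was the same in every alternative run, with edgeR, DESeq2 and limma and at adjusted p thresholds of 0.1 and 0.01. The count of genes with p up to 0.05 and a log2 fold change of at least 1 in size, 78, was 355 with DESeq2's Wald test, 21 with limma voomWithQualityWeights, 740 without a filter on low counts, 192 with the filter level in at least 2 libraries, 49 with at least 10 counts in every library, 128 with all 15 libraries in 1 fit, 36 with Y-linked expression as covariate, 17 with muscle and hair scores as covariates, and 26 in the 8 libraries with Y-linked counts, which were chosen after seeing the data. It ran from 21 (without lesional 11) to 201 (without lesional 5 or 8) when 1 library was left out. The count of genes whose groups do not overlap, 80, was 133 without a filter and 222 in the 8 libraries, and ran from 140 to 279 without 1 library, where fewer samples make non-overlap easier. Of 1659 alternatives for 73 named genes 0 passed the adjusted threshold and 1 changed sign, *Otulin*, whose log2 fold change was -0.08 and, when 1 library was left out, from -0.1403 (without non-lesional 6) to 0.0032 (without non-lesional 3). Of 965 alternatives for list medians 23 moved by more than the SD of the list over the 5 lesional libraries. Lesional 2 and 11 widen that SD, so large shifts could go uncounted. The stress keratin median was 4.07 in the main fit and 1.15 with limma voomWithQualityWeights, a shift smaller than that SD. No paired analysis was made, because the groups share no replicate numbers and the labels do not tie lesional to non-lesional samples. If samples of the groups came from the same mice, the unpaired tests ignore that. Apart from the constructions named, the cause was not tested. Upper quartile and total count scaling shifted the median of all genes by -0.03 and -0.04 on the log2 scale. A count is worth 0.405 to 0.52 CPM, so low genes such as *Tnf* and *Cfap43* rest on few reads.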
